A study of Mus musculus with 6 samples.

Results

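Bone morphogenetic protein (BMP) signalling in resting mouse skin was described here through 10 genes, chosen by symbol from the pathway's ligands, a receptor, secreted antagonists and direct targets: Bmp2, Bmp4, Bmp6, Bmp7, Bmpr1a, Nog, Grem1, Id1, Id2 and Id3. All 10 were measured, among 22835 genes and unnamed transcripts tested. Messenger RNA was profiled on 1-colour Agilent arrays in skin of 6 untreated male mice of mixed C57Bl6/129Sv background. All skin was labelled as telogen, when hair follicles rest between growth phases. The 3 wild-type (WT) mice were 20, 19 and 18 weeks old (replicates 1, 2 and 3), and the 3 knockout (KO) mice, in which Sox4 was conditionally deleted in skin, were 17, 18 and 16 weeks old. KO mice were therefore younger on average. The sources used here name neither the driver of the deletion nor the skin cells it acts in, and do not say whether WT mice carried Cre or the floxed allele.

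BMP ligands are secreted dimers of the TGF-beta superfamily. They assemble type I receptors, such as the one encoded by Bmpr1a, with type II receptors on the cell surface, and the type I receptor phosphorylates SMAD1, SMAD5 and SMAD9, which enter the nucleus with SMAD4 and switch on genes such as Id1, Id2 and Id3. Noggin and gremlin bind the ligands outside the cell and keep them from the receptor. In the hair cycle, BMP signalling holds follicle stem cells quiescent during telogen, and antagonists from the dermal papilla and surrounding dermis oppose it when a new growth phase, anagen, begins. Sox4 is a SoxC transcription factor, and the comparison addresses its role in resting skin.

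None of the 10 genes passed the test between KO and WT (limma, Benjamini-Hochberg adjusted p under 0.05 over all genes tested). In all, 5 genes or transcripts passed, or 0.0219% of those tested, with 0.00438% higher and 0.0175% lower in KO. Grem1, 1.69-fold lower in KO, was the 1 member with an unadjusted p under 0.05. That threshold was passed by 11.7% of all genes. KO and WT values overlapped for every member, while they did not overlap for 19.3% of all genes (7.58% higher and 11.7% lower in KO). The median size of the log2 fold change was 0.0868 over the members and 0.184 over all genes, and the median signed change was −0.070 and −0.085. The members' median standard error (SE), 0.171 on the log2 scale, was close to the 0.162 of all genes.

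Values below are log2 signal of a gene's brightest probe relative to the array's 75th percentile, so they compare mice for one gene and not genes with each other. Differences are KO minus WT on the log2 scale with 3 mice per group. Every member was well above background on all 6 arrays, and none was saturated. The second probe for Bmp4 was not well above background on any array and was not used; the other 9 members had 1 probe each. The arrays measured RNA of whole skin, in which fewer cells of a type and less RNA per cell cannot be told apart.

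The labels and the state of the tissue were checked first. Sox4 in WT replicates 1, 2 and 3 was at 0.41, 0.65 and 0.75, and in the KO replicates at −2.95, −2.88 and −3.05, a difference of −3.56 (SE 0.13, adjusted p = 0.00135). It was far lower in every KO skin. All 11 measured markers of epidermal keratinocytes were well above background on all arrays. Their median score ran from −0.29 to 0.25 in WT and from −0.24 to −0.21 in KO, and all 11 had a lower mean in KO, 2 of them without overlap. Markers of the hair shaft and inner root sheath, structures that are built in anagen, split the KO mice. The median score of the 21 measured markers, relative to the WT mean, was 4.09 in KO replicate 1 and 3.53 in KO replicate 2, against −0.04 in KO replicate 3 and between −0.11 and 0.23 in WT. Their summed signal ran from 9479 to 14740 units in WT and was 229387, 130073 and 13628 units in KO replicates 1, 2 and 3. Of the 21, 20 were well above background on all 6 arrays. The widest range was that of the inner root sheath keratin gene Krt71, followed by those of Krt27, another inner root sheath keratin gene, and the hair keratin genes Krt33a and Krt35. Krt71 was at 7.22 and 6.72 in KO replicates 1 and 2, and at most −1.19 on the other 4 arrays. The skin of these 2 mice thus carried hair-building RNA that stands against the telogen label. Skeletal muscle markers (25 measured) also differed, with scores of 1.76, 2.07 and 1.54 in KO and 1.19, −0.37 and −0.69 in WT. Their summed signal was 350450 to 1135490 units in WT and 1685700 to 2266320 units in KO, and 24 of the 25 were well above background on all arrays. Markers of T and natural killer cells (9 measured, 8 well above background on all arrays) scored between −0.067 and 0.17 in WT and between −1.24 and −1.10 in KO. KO and WT did not overlap for 8 of these 9 markers, of which 1 (Cd3g, named after its value was seen) passed the adjusted threshold of limma, and their summed signal was 4271 to 5881 units in WT and 2957 to 3346 units in KO. The part of these tissue components in the values below was not tested, except that differences are also given without KO replicates 1 and 2. The arrays lay on 3 slides: slide 1 held WT replicate 1 and KO replicate 3, slide 2 held WT replicates 2 and 3 and KO replicate 1, and slide 3 held KO replicate 2.

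The promoters of Grem1, the member that differed most between the groups, and of the SMAD targets Id2 and Id3 are shown because Grem1 and Id2 were low in the same 2 mice while Id3 was not. Each window runs from 250 bases before to 50 bases after the gene's start in RefSeq (build GRCm38.p6), 5′ to 3′ on the gene's strand. Capitals mark matches, on either strand, to the GC-rich SMAD element GGCGCC, the SMAD-binding element CAGAC and the Sox-type core ACAAAG.
Grem1 (chr2:113758599-113758898, minus strand): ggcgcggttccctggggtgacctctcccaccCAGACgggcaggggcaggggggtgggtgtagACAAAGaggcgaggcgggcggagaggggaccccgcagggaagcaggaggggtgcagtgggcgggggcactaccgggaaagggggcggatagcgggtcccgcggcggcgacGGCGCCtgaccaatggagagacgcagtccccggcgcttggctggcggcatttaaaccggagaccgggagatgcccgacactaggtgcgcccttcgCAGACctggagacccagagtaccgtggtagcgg
Id2 (chr12:25096043-25096342, minus strand): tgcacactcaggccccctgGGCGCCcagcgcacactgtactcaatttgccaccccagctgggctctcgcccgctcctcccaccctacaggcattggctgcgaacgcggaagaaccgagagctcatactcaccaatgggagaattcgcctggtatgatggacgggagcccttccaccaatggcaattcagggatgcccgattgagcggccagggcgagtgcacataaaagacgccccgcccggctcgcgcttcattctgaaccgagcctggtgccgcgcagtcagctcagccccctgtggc
Id3 (chr4:136143572-136143871, plus strand): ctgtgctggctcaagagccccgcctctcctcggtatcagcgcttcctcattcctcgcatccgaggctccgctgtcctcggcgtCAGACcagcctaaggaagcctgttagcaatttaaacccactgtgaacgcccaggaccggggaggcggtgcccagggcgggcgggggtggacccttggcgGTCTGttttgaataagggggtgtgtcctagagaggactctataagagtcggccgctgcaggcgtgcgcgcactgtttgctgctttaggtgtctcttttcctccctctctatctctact
The Grem1 window held all 3 motifs, with GGCGCC 78 bases before the start, ACAAAG 188 bases before it, and CAGAC both 219 bases before it and inside the transcript. Id2 held GGCGCC alone, 231 bases before its start, and Id3 held CAGAC on both strands, at 167 and 68 bases before its start. Windows were available for 6 of the 10 members. Among the other 3, Bmpr1a held GGCGCC, Bmp6 held CAGAC, and Bmp4 held none of the 3. Of all 32851 windows, 11.9% held GGCGCC, 49.6% CAGAC and 18.7% ACAAAG. The 6 member windows were richer in G and C than the median window (52.7%), from 60% in Id3 to 79.3% in Bmpr1a. The shares over all windows are not matched for this, so they give no expected count for the members, least of all for GGCGCC. A match describes the letters only; no binding was measured.

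The 4 ligands showed no separation of KO from WT. Bmp4, a ligand of dermis and dermal papilla, stood at 3.37, 3.18 and 3.18 in the WT mice and at 3.23, 3.52 and 2.93 in the KO mice. Both the highest and the lowest value came from KO mice, replicates 2 and 3. The difference was −0.012 (SE 0.17), with a 95% interval of −0.43 to 0.40. Bmp2, produced by dermal fat and by the follicle epithelium, stood at 1.35, 1.84 and 1.36 in the WT mice and at 1.37, 1.47 and 1.46 in the KO mice. WT replicate 2 stood above the other 5 arrays, which lay close together, and the difference was −0.084 (SE 0.16, interval −0.48 to 0.31). Bmp7 had the same high mouse, with 2.80, 3.53 and 3.02 in the WT mice and 2.96, 3.16 and 3.10 in the KO mice, a difference of −0.044 (SE 0.20, interval −0.53 to 0.44).

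Bmp6, a ligand produced in the stem cell niche of the resting follicle, was the most variable ligand. It stood at −1.45, −0.59 and −1.90 in the WT mice and at −1.13, −1.27 and −1.38 in the KO mice. The highest and the lowest value both came from WT mice, and the KO values lay between them. The WT values spanned 1.31 on the log2 scale and the KO values 0.255. The difference was 0.054 (SE 0.32), and its interval, −0.72 to 0.83, was the widest among the ligands. For Bmp6 the choice of array set the sign: the difference was −0.24 without WT replicate 3 and 0.42 without WT replicate 2.

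Bmpr1a, the type I receptor that follicle differentiation requires, was among the least variable members. It stood at 2.08, 2.19 and 1.96 in the WT mice and at 2.16, 2.25 and 2.08 in the KO mice, so that all 6 arrays lay within 0.290. The difference was 0.089 (SE 0.12), with the narrowest interval of the 10 members, −0.19 to 0.37.

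**Figure D1:**
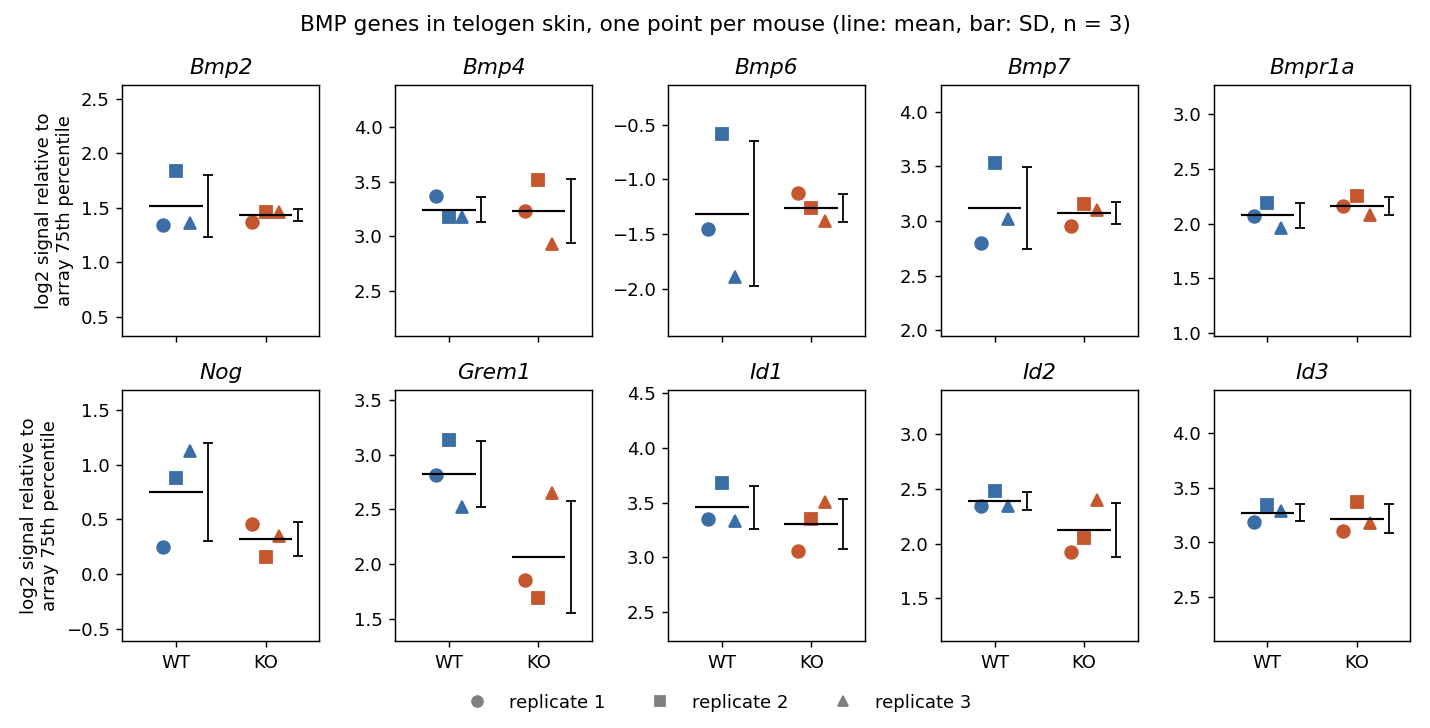
Log2 signal relative to the array's 75th percentile (y axis) of the 10 BMP genes in WT and KO skin; each point is 1 mouse, symbols give the replicate number, lines the group mean and bars the SD (n = 3), and every panel spans the same range of log2 units. KO and WT points overlap in every panel, and the widest spread within KO is that of Grem1, from 1.69 to 2.65.

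The secreted antagonists had the 2 lowest differences among the members. Grem1, which encodes gremlin, stood at 2.82, 3.13 and 2.52 in the WT mice and at 1.85, 1.69 and 2.65 in the KO mice. KO replicates 1 and 2 lay below all WT mice, while KO replicate 3 lay inside the WT range. The difference was −0.76 (SE 0.29, interval −1.45 to −0.068; adjusted p = 0.396), or 1.69-fold lower in KO. An exact two-sided permutation test over the mice gave p = 0.2, where 0.1 is the smallest that 3 against 3 allows. The 2 low mice were those with the high hair shaft scores. Without them, Grem1 in KO replicate 3 differed from WT by −0.18. The Grem1 difference was −0.17 within slide 1 and −0.98 within slide 2. Fitting slide as a block gave −0.63 (adjusted p = 0.680).

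Nog, which encodes noggin, stood at 0.25, 0.88 and 1.12 in the WT mice and at 0.46, 0.15 and 0.35 in the KO mice. WT replicates 2 and 3 were high, and WT replicate 1 lay among the KO mice. The difference was −0.43 (SE 0.24, interval −1.002 to 0.14; adjusted p = 0.506). Nog thus differed from Grem1 in which mouse carried the overlap. Leaving out KO replicates 1 and 2 left the Nog difference at −0.40. For Nog it was 0.096 within slide 1, −0.54 within slide 2 and −0.27 with slide as a block, and −0.68 without WT replicate 1 (adjusted p = 0.147). With age as a covariate the differences were −0.97 for Nog (adjusted p = 0.249) and −1.09 for Grem1 (adjusted p = 0.358).

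The 3 Id genes encode helix-loop-helix proteins that bind and inactivate E-protein transcription factors, and they serve widely as a readout of SMAD1 and SMAD5 activity. Id1 stood at 3.35, 3.68 and 3.33 in the WT mice and at 3.06, 3.35 and 3.51 in the KO mice. Its lowest value was that of KO replicate 1 and its highest that of WT replicate 2, and the difference was −0.15 (SE 0.17, interval −0.55 to 0.26). Id2 stood at 2.34, 2.48 and 2.34 in the WT mice and at 1.92, 2.05 and 2.39 in the KO mice. As for Grem1, KO replicates 1 and 2 lay below every WT mouse and KO replicate 3 lay within the WT range. The difference was −0.27 (SE 0.15, interval −0.63 to 0.10; adjusted p = 0.521), and without those 2 mice it was 0.0057. Id3 stood at 3.19, 3.34 and 3.29 in the WT mice and at 3.11, 3.37 and 3.18 in the KO mice. It was the least variable member, with all 6 arrays within 0.260 and a difference of −0.055 (SE 0.12, interval −0.35 to 0.24).

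The 95% intervals, which are not adjusted for the number of genes, lay within a 2-fold change in either direction for 8 of the 10 members. The exceptions were Grem1 and Nog, whose lower bounds corresponded to 0.365 and 0.499 of the WT level. For Id3 the interval ran from 0.786 to 1.18 times the WT level, and for Bmpr1a from 0.874 to 1.29 times. For Bmp4, whose means differed least, a KO level between 0.743 and 1.32 times that of WT remained within the interval. Smaller differences than these were not resolved by 3 mice per group.

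**Figure D2:**
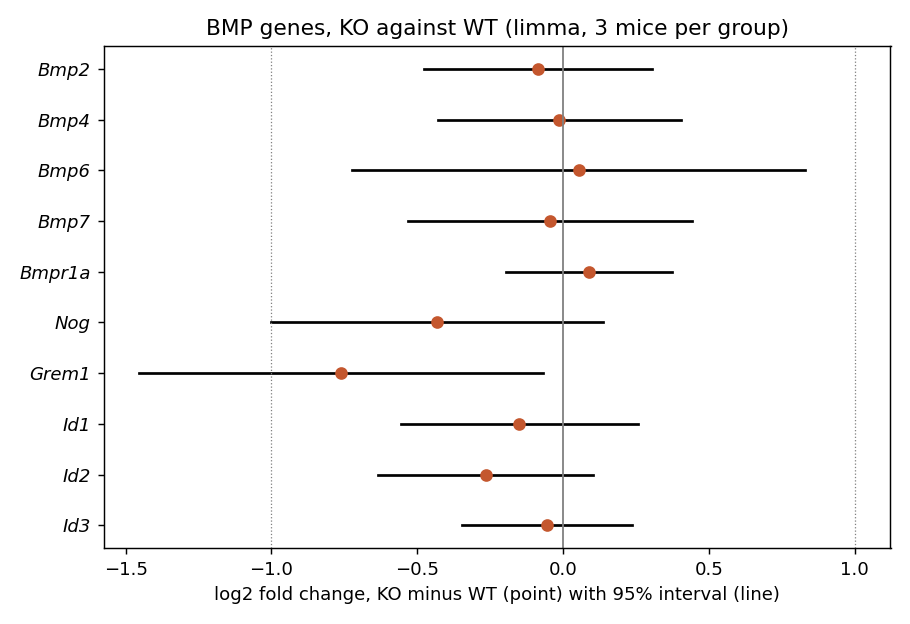
Log2 fold change of the 10 BMP genes, KO minus WT (x axis, points), with 95% intervals from limma (lines, 3 mice per group); dotted lines mark −1 and 1. Grem1 is the single gene whose interval, −1.45 to −0.068, leaves out 0, and 8 of the 10 intervals lie between the dotted lines.

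The differences were unlike on the 2 slides that held both groups. Of the 10 members, 3 were lower in KO on slide 1 and 7 on slide 2, and the median size of the difference was 0.106 and 0.275. Over all genes, 45.3% were lower in KO on slide 1 and 63.9% on slide 2, with a median size of 0.151 and 0.244 and a median difference of 0.024 and −0.115. On slide 1, where neither mouse had a raised hair shaft score, the differences ran from −0.44 for Bmp4 to 0.30 for Bmp7. Grem1, Nog, Id1 and Id2 there differed by −0.17, 0.096, 0.16 and 0.055. On slide 2, whose KO mouse had a hair shaft score of 4.09, the same 4 genes differed by −0.98, −0.54, −0.45 and −0.49. These are values of single KO mice and have no test. The skeletal muscle scores were 1.19 in WT and 1.54 in KO on slide 1, against −0.37 and −0.69 in WT and 1.76 in KO on slide 2. Ages were 20 weeks in WT and 16 in KO on slide 1, against 19 and 18 in WT and 17 in KO on slide 2. Slide, hair shaft RNA, muscle RNA, age and mouse cannot be told apart in this contrast, since each slide held 1 KO mouse.

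**Figure D3:**
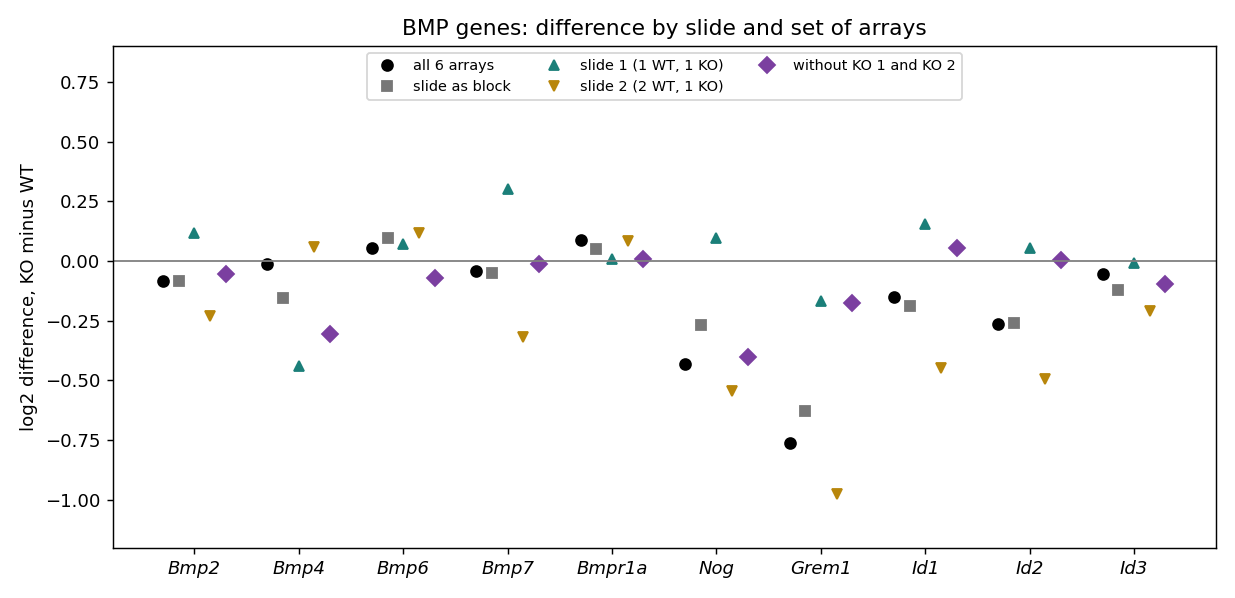
Log2 difference KO minus WT (y axis) of the 10 BMP genes over all 6 arrays, with slide as a block, within slide 1, within slide 2, and without KO replicates 1 and 2. Grem1 is at −0.76 over all arrays but at −0.17 on slide 1 and −0.18 without KO replicates 1 and 2.

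The rest of the pathway was read from 66 further genes, of which 55 were tested; for 10 no probe passed the filter on dim signals, and for 1 no probe was named. None of the 55 passed the adjusted threshold (limma, smallest adjusted p = 0.274), against 0.0219% of all genes, and 6 had an unadjusted p under 0.05. The genes split evenly, 28 lower and 27 higher in KO, with a median of −0.00140, whereas 64.1% of all genes were lower. KO and WT did not overlap for 10 of the 55 (18.2%, against 19.3% of all genes), 5 in each direction. Of the 55, 5 were kept through 1 group alone, the group in which their mean was higher: Chrdl2, Bmpr1b, Smad9 and Gdf7 through KO and Rgmb through WT, with 2 of 3 arrays of the other group well above background (Gdf7 is named here for that reason alone). For these, the filter favours a difference. Among the 50 genes measured well above background on all 6 arrays, 27 were lower and 23 higher in KO, and 8 did not overlap (16%, against 19.3% of all genes so measured), 5 lower and 3 higher.

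Among the other ligands, Bmp3, which antagonises other BMPs, had −0.44 (SE 0.18, adjusted p = 0.422) with no overlap between groups, and −0.27 without KO replicate 3. Gdf5, a growth and differentiation factor, had −0.61 (SE 0.30) from the brighter of its 2 kept probes. Averaging both probes gave −0.090, and leaving out KO replicate 2 gave −0.28, or −0.081 when KO replicate 1 was left out as well. Bmp10, best known from the heart, had 0.26, with 0.082 without KO replicate 1 and 0.44 without KO replicate 2. In all, 3 of the 6 ligands tested were lower and 3 higher.

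Of the 10 receptors and co-receptors tested, 7 were higher in KO. Acvr2b, a type II receptor that binds activins and BMPs, stood at 1.96, 1.44 and 1.80 in the WT mice and at 2.15, 2.61 and 2.20 in the KO mice. Every KO mouse lay above every WT mouse, and the difference was 0.59 (SE 0.19, interval 0.12 to 1.05; adjusted p = 0.349). It was 0.47 without KO replicates 1 and 2, and 0.24 and 0.53 on slides 1 and 2. The skeletal muscle score was also higher in every KO mouse than in any WT mouse. WT replicate 1 (1.19) and KO replicate 2 (2.07) had the highest muscle score of their groups, and also the highest Acvr2b. The remaining mice of each group stood in the opposite order. WT replicates 2 and 3 had muscle scores of −0.37 and −0.69 with Acvr2b at 1.44 and 1.80. KO replicates 1 and 3 had muscle scores of 1.76 and 1.54 with Acvr2b at 2.15 and 2.20. The part of muscle RNA in the Acvr2b difference was not tested. Bmpr1b, a second BMP type I receptor, had 0.69 (SE 0.31), from a probe near background in WT that was kept through KO alone. It was 0.35 without WT replicate 2, and 0.26 or 0.12 with normexp background correction. That correction was run with 50 units added to each spot, which shrinks differences of dim probes. Rgmb, a BMP co-receptor, had −0.75 (SE 0.30, adjusted p = 0.416) from a probe kept through WT alone. The normexp settings gave −0.34 and −0.46, and slide 2 gave −0.19. Bmpr2 and Acvr1, named here for their roles after their values were seen, had 0.0064 and 0.045. These encode the main BMP type II receptor and another type I receptor.

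Among the antagonists, Chrdl2, a chordin relative, had a large difference that rests on a dim probe. It stood at −4.14, −5.00 and −4.06 in the WT mice and at −3.26, −2.59 and −2.84 in the KO mice. All KO mice lay above all WT mice, at 1.501 (SE 0.30, interval 0.78 to 2.22; adjusted p = 0.274). The probe was well above background on 2 of 3 WT arrays and all 3 KO arrays, and was kept through KO alone, so that this value has a WT side near background. Slides 1 and 2 gave 1.299 and 1.27, and leaving out KO replicates 1 and 2 gave 1.56, while the normexp settings gave 0.59 and 0.44. The added 50 units stand against Chrdl2 signals of 15.3 to 84.4 units, so these settings shrink its difference by construction. Grem1 (−0.71 in both) and Acvr2b (0.60 and 0.61) have far brighter probes, so values under these settings do not rank Chrdl2 against them. The skeletal muscle score was likewise higher in all KO mice than in any WT mouse. On slide 1 it was 1.19 in WT and 1.54 in KO, and on slide 2 −0.37 and −0.69 in WT and 1.76 in KO. The Chrdl2 difference was close on these 2 slides. The part of muscle RNA in the Chrdl2 value was not tested. Dand5, another antagonist, had 0.41 (SE 0.16) without overlap, and Nbl1 had −0.35 (SE 0.16) with overlap. Of the 16 genes tested from the list of antagonists and binding proteins, 10 were lower and 6 higher in KO. The 16 include Bmp1 (−0.0014) and Tll1 (0.52), which encode proteases and not antagonists.

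The receptor-regulated SMAD genes differed by small amounts. Smad1 stood at 0.07, 0.13 and −0.03 in the WT mice and at −0.22, −0.14 and −0.14 in the KO mice, a difference of −0.22 (SE 0.11, adjusted p = 0.473) with no overlap. Smad5 had −0.24 (SE 0.13) with no overlap, but −0.15 with both kept probes averaged and −0.14 without WT replicate 2. Smad9, from a dim probe kept through KO alone, had 0.33 (SE 0.17) with overlap, and 0.16 without WT replicate 1. The Smad1 difference was close on slides 1 and 2, at −0.21 and −0.27, and was −0.19 without KO replicates 1 and 2. With its 2 kept probes averaged it was −0.15. Of 13 genes of the intracellular signal and its inhibitors, 8 were lower and 5 higher in KO.

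**Figure D4:**
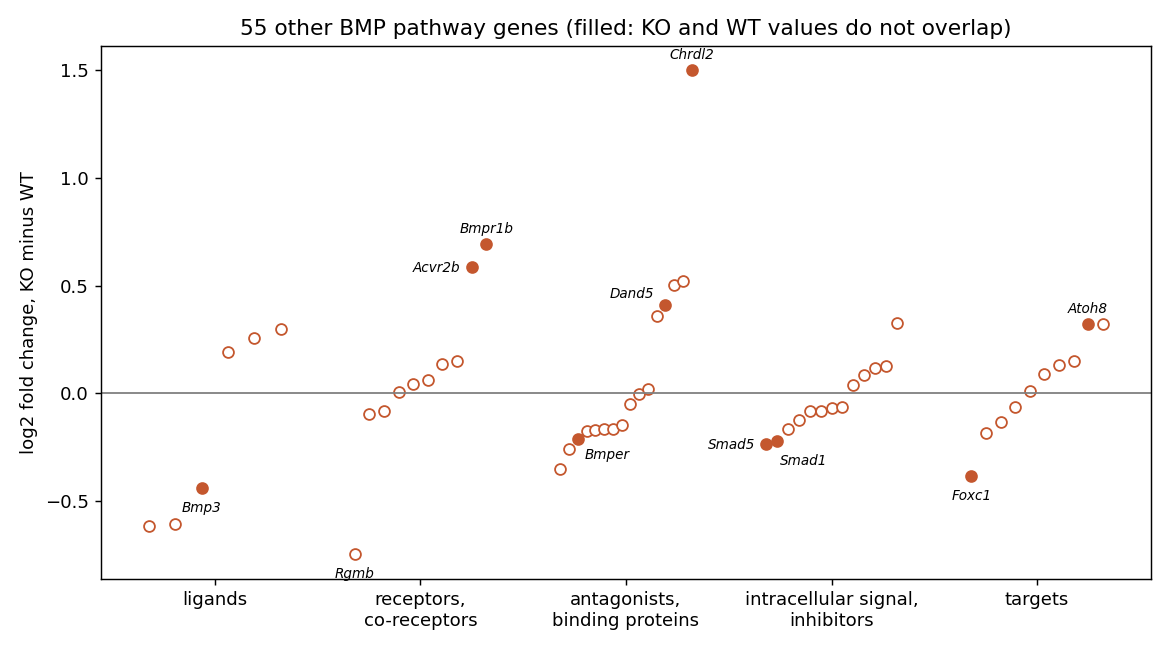
Log2 fold change, KO minus WT (y axis), of the 55 other BMP pathway genes tested, 1 point per gene, grouped by role; filled points are genes whose KO and WT values do not overlap. Points lie on both sides of 0 in every role, and the outermost ones, Chrdl2 at 1.501 and Rgmb at −0.75, are from dim probes kept through 1 group alone.

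Among 10 further targets, 4 were lower and 6 higher. Foxc1, a forkhead factor of quiescent follicle stem cells, stood at 2.42, 2.65 and 2.41 in the WT mice and at 2.11, 1.88 and 2.34 in the KO mice, a difference of −0.38 (SE 0.16, adjusted p = 0.421). The groups did not overlap, but KO replicates 1 and 2 were again the 2 lowest, and without them the difference was −0.15. Msx2, a homeodomain factor of the hair matrix that BMPs induce, showed the opposite order. It stood at −0.02, 0.11 and 0.01 in the WT mice and at 0.42, 0.57 and 0.07 in the KO mice, so that KO replicates 1 and 2 were the 2 highest arrays. Its difference was 0.32 (SE 0.16, adjusted p = 0.471), and 0.040 without them. The share of all genes with KO replicates 1 and 2 as the 2 lowest or 2 highest arrays was not counted. The order is therefore not shown to be particular to these genes. Over all genes tested, KO replicate 3 correlated at 0.991 with WT replicate 1, against 0.985 with KO replicate 1 and 0.978 with KO replicate 2. Msx2 also belongs to the hair shaft marker list, and Foxc1 to that of hair follicle stem cells (12 measured). The stem cell list scored 0.022, 0.19 and −0.20 in the WT mice and −0.22, −0.29 and −0.048 in the KO mice. Dermal fibroblast markers (10 measured) were also lowest in KO replicates 1 and 2, at −0.28 and −0.15. They scored −0.072 in KO replicate 3 and −0.039 to 0.10 in WT. Other lists did not share this order. In KO replicates 1, 2 and 3, dermal papilla markers (9 measured) scored 0.31, −0.080 and −0.060, against −0.047 to 0.063 in WT. White adipocyte markers (10 measured) scored 0.26, −0.27 and −0.18 in these mice, and sebaceous gland markers (10 measured) −0.069, −0.70 and −0.25. The part of these lists in the gene values was not tested. Atoh8, a helix-loop-helix factor, had 0.32 (SE 0.15) with no overlap, and 0.18 without KO replicate 2 or 0.11 with normexp and 75th percentile scaling.

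**Figure D5:**
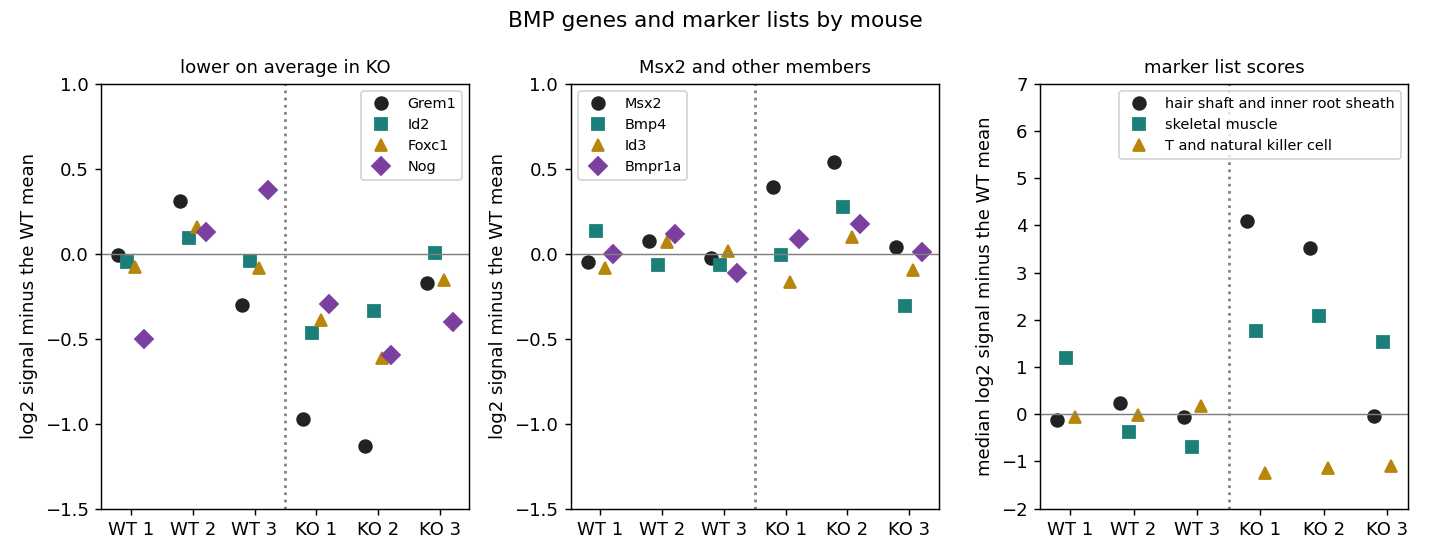
Left and middle, log2 signal minus the WT mean (y axis) of 8 BMP pathway genes in each of the 6 mice (x axis); right, marker list scores, the median over markers of the same quantity. Grem1, Id2 and Foxc1 are lowest and Msx2 highest in KO replicates 1 and 2, the mice with hair shaft scores of 4.09 and 3.53.

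Only Bmp6 and Grem1 spanned at least 1 log2 unit over the 6 mice, and for these the genes with the most similar profile were sought among 14274 named genes. Likeness was the root mean square difference of the 6 values after each gene's mean was removed. For Grem1 the nearest were Btc (0.123), an EGF-family ligand, Cyp51 (0.134), an enzyme of cholesterol synthesis, and Samd3 (0.138). For Bmp6 they were Lactb2 (0.131), Ece2 (0.163) and Cldn3 (0.165), a tight junction protein. These are the closest of many profiles over 6 mice and are a description only.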

How the data were processed

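The authors deposited 1 scanner file per array, from Agilent Feature Extraction 11.5.1.1. Its processed intensity per spot is background-subtracted within the array and not normalized between arrays, per the file headers. Each spot also has deposited flags (other values, 0 or 1) for signal over background, saturation and outliers. RNA was extracted with Trizol and column-purified, and copied into Cy3-labelled RNA, per the labels' protocols; the submitters' processing notes name limma. Groups, replicate numbers and ages came from the labels. No label says whether extractions or litters were separate, so p-values measure only the spread between these samples. The authors' deposited table of log2 values was not used: over 30096 probes each column headed WT followed the KO array of the same number and the reverse (correlations 0.998 to 0.999, against −0.624 to −0.230 with the array in the heading). Its column medians were 6.80, and no source used here states how it was made.

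Spots of a probe were averaged as log2 without outlier-flagged spots (31 of 55681 probes lost), and each array's 75th percentile (380.3 to 606.7 units) was subtracted. Between 52.1% and 66.4% of probes were well above background; no spot was saturated, and the number of arrays limits the precision. Accessions were named through a RefSeq table (GRCm38.p6), which named 27497 probes; the array grid refers to mm9, so coordinates are given only for RefSeq promoter windows. A probe was kept if every array of WT or of KO had it well above background (30096 probes), and the brightest stood for its gene, giving 22835 genes and transcripts, 14930 with a symbol. KO was tested against WT by lmFit and eBayes of limma 3.58.1 (R 4.3.3), two-sided and without covariates, at a Benjamini-Hochberg threshold of 0.05; the code was tested on simulated data. All members are named; of the other pathway genes, those without overlap and with unadjusted p under 0.05, and otherwise up to 3 of smallest p in each role, except where stated. For members spanning 1 log2 unit, the 3 nearest profiles are named, without predicted genes and clones. Members, lists and alternatives were chosen with earlier results of these data known. Alternatives were other normalizations, background corrections, filters and probe rules, slide, replicate number and age as terms, and fits without single arrays or KO replicates 1 and 2. The normexp correction, with an offset of 50 units, used the median spot signal, as the files hold no mean signal. That choice was made after seeing the files, so the normexp settings do not count as planned. Scan time matched slide and was not run apart.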

Additional observations from a re-analysis of the deposited data

How the results depend on the processing

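No BMP member and no other BMP pathway gene passed the adjusted threshold under any alternative that was fitted (limma; 180 tested member values). Of 200 member values, 179 kept their sign. The 21 that turned belong to Bmp2 (0.077 without WT replicate 2, 0.12 within slide 1), Bmp4 (0.022 with quantile normalization, 0.38 with age as a covariate, 0.053 and 0.14 when WT replicate 1 or KO replicate 3 was omitted, 0.059 within slide 2), Bmp6 (−0.018 and −0.055 with normexp and quantile or 75th percentile scaling, −0.016, −0.24 and −0.011 when WT replicate 1, WT replicate 3 or KO replicate 1 was omitted, −0.070 without KO replicates 1 and 2) and Bmp7 (0.16 without WT replicate 2, 0.014 without KO replicate 1, 0.30 within slide 1). The others are Id1 (0.053 without KO replicates 1 and 2, 0.16 within slide 1), Id2 (0.0057 and 0.055 in the same order) and Nog (0.096 within slide 1). Among other named genes, Gdf5 was 0.018 within slide 1 and Smad9 −0.073 with normexp and 75th percentile scaling. Without single arrays, Bmp2 ran from −0.17 to 0.077, Bmp4 from −0.16 to 0.14, Bmp6 from −0.24 to 0.42, Bmp7 from −0.20 to 0.16, Grem1 from −1.05 to −0.57, Nog from −0.68 to −0.25, Id1 from −0.25 to −0.026, Id2 from −0.40 to −0.16, Id3 from −0.13 to −0.00049 and Bmpr1a from 0.032 to 0.15.

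The count of all genes called, 5, was 11 with quantile normalization, 8 with each normexp setting, 2 with no filter, 8 with probes well above background on all arrays, 1 with slide as a block, 8 with slide as a random block, 139 with age as a covariate and 130 without KO replicates 1 and 2. The last fit assumes that the lone KO array varies like WT. Leaving out 1 array gave 2 to 256 calls: 256 when WT replicate 1 was omitted and 154 for KO replicate 3, but 3 for KO replicate 1, and 2 for each of the other 3 arrays. The cause was not tested. With the replicate block 0 genes passed (limma; 2214 at unadjusted p under 0.05), and Sox4 stood at −3.56 (adjusted p = 0.103). The labels do not say that replicate numbers pair mice, and deviations of same-numbered mice correlated at −0.13, −0.04 and 0.08, so the block describes no pairing. The median of all genes moved from −0.085 to −0.15 with age as a covariate to 0.024 within slide 1 and to −0.115 within slide 2. Chrdl2, Bmpr1b, Rgmb and Smad9, each dim on at least 1 array, have no value with probes well above background on all arrays.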
